A study of Tupaia belangeri with 15 samples.

Results

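The 4 genes PDE4A, PDE4B, PDE4C and PDE4D are named after the PDE4 phosphodiesterases in the annotation of the tree shrew (TS). Their RNA was followed in nuclei from 15 retinas at 3 postnatal stages. The members were taken by gene name among 83605 features: PDE4A (TSDBGID.18463), PDE4B (TSDBGID.25181), PDE4C (TSDBGID.942) and PDE4D (TSDBGID.5986). PDE4B was chosen by its summed UMIs in astrocytes, which were lower in senile than in infant retinas, so its values there are given as a description with no test. The annotation holds 26 further features named after a PDE4 gene (a numbered copy, antisense and LINC features, and PDE4DIP), which are not members and are described only where they bear on one.

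PDE4 enzymes hydrolyse the second messenger cyclic AMP, which adenylyl cyclases make in response to G protein-coupled receptors, and so set how long and how far a cyclic AMP signal spreads. Cyclic AMP acts through protein kinase A, the exchange factors RAPGEF3 and RAPGEF4 and transcription factors of the CREB family. PDE4 enzymes are targets of anti-inflammatory drugs, and PDE4B is known for its role in immune cells and in microglia, the resident immune cells of neural tissue. In neurons of the retina cyclic AMP is an effector of dopamine receptors, and in glia of adrenergic and purinergic receptors.

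The retinas came from TS (Tupaia belangeri) in infancy, at maturity and in senility, 5 per stage, with no treatment or genotype given beside the stage. The labels give neither the age nor the sex of each animal, and the study's methods state that the senile animals came from another institute than the younger ones, so the senile stage and its source cannot be told apart; the infant and mature animals shared a source. Frozen retinas were homogenized and single nuclei were sequenced on the 10x Genomics platform, in which each captured RNA molecule is counted once by its unique molecular identifier (UMI). The libraries held 13429873 to 58734300 UMIs each, with a median of 1461 to 5611 UMIs per barcode. The file headers name Cell Ranger 6.1.2 for 7 retinas and 7.0.1 for 8, with both versions in every stage, and this version was a term of each stage test. No pair of retinas shared more than 30 barcodes, and no pair shared more than 0.422% of the smaller library. The non-coding feature LINC-FRMD8-1 took 12% to 21.2% of all UMIs of a library.

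The nuclei were clustered without the PDE4 genes or any gene of the cyclic AMP lists below, and a nucleus entered a class only if its cluster and its own UMIs both carried the markers of that class. The 9 classes are therefore cone-like, rod-like and so on, and are called here cones (14143 nuclei), rods (1007), bipolar cells (BCs, 13986), horizontal cells (HCs, 1251), amacrine cells (ACs, 25333), retinal ganglion cells (RGCs, 5137), Müller cells (6490), astrocytes (1136) and microglia (754). A further 42588 of 111825 nuclei had no class and are not described. Levels are CPM, a gene's UMIs in a class of a retina scaled to a common total of that class, and errors are SD over retinas. A lower level of a gene in a class can come from less RNA per nucleus or from fewer nuclei that carry it, which a sum over nuclei cannot tell apart.

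PDE4B had its highest level in HCs, the interneurons that feed back onto photoreceptors, and its lowest in cones. Its mean was 2137 ± 392 CPM in HCs, 1147 ± 448 in microglia, 795 ± 103 in RGCs and 753 ± 84.8 in ACs (n = 15 retinas each). It was 444 ± 240 CPM in astrocytes, 120 ± 24.4 in Müller cells, 41.3 ± 49.2 in rods (n = 14, since Senile 1 had no rods), 27.0 ± 21.3 in BCs and 16.4 ± 11.6 in cones. The retinas of HCs spanned 1466 to 2802 CPM and those of cones 6.098 to 43.8, so the extremes of the order lay far apart in every retina. The level was thus high in HCs, microglia, RGCs and ACs, intermediate in astrocytes and Müller cells, and low in photoreceptors and BCs.

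Each class was compared with the next in this order within retinas, by a 2-sided exact sign-flip permutation test of log2(CPM + 1), among 32 neighbouring pairs of the 4 members; the order itself was set by the same values. The 2 pairs of PDE4B that involve astrocytes rest on the values that chose the gene, so they are given with no test and p-values are adjusted over the 30 others. Counts of alternatives that lost a call were taken with the adjustment over all 32 pairs. They include each Cell Ranger version alone, where fewer retinas enter the exact test and no pair passed. Of the 6 other pairs of PDE4B, 3 differed. HCs exceeded microglia in 15 of 15 retinas, by 0.99 ± 0.71 on the log2 scale (adjusted p = 0.000916). Müller cells exceeded rods in 13 of 14 (adjusted p = 0.00488). The level in ACs was above that in astrocytes in 14 of 15 retinas, and the level in astrocytes above that in Müller cells in 15 of 15. The means of astrocytes and ACs lay close together in infancy (719.8 and 738 CPM) and apart in senility (276 and 781). Microglia and RGCs did not differ beyond their spread (12 of 15 retinas, adjusted p = 0.129), nor did RGCs and ACs (adjusted p = 0.447), or rods and BCs (7 of 14 retinas, adjusted p = 0.953). BCs exceeded cones in 11 of 15 retinas (adjusted p = 0.0467), a call that 15 of 23 alternative settings lost and whose direction turned with doublets kept. The HC level was 1177 CPM, and HCs and microglia did not pass the test, where each nucleus was classed by its own markers alone; under the same setting BCs held 80.7 CPM and Müller cells 216. With doublets kept, cones held 32.9 CPM.

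**Figure D1:**
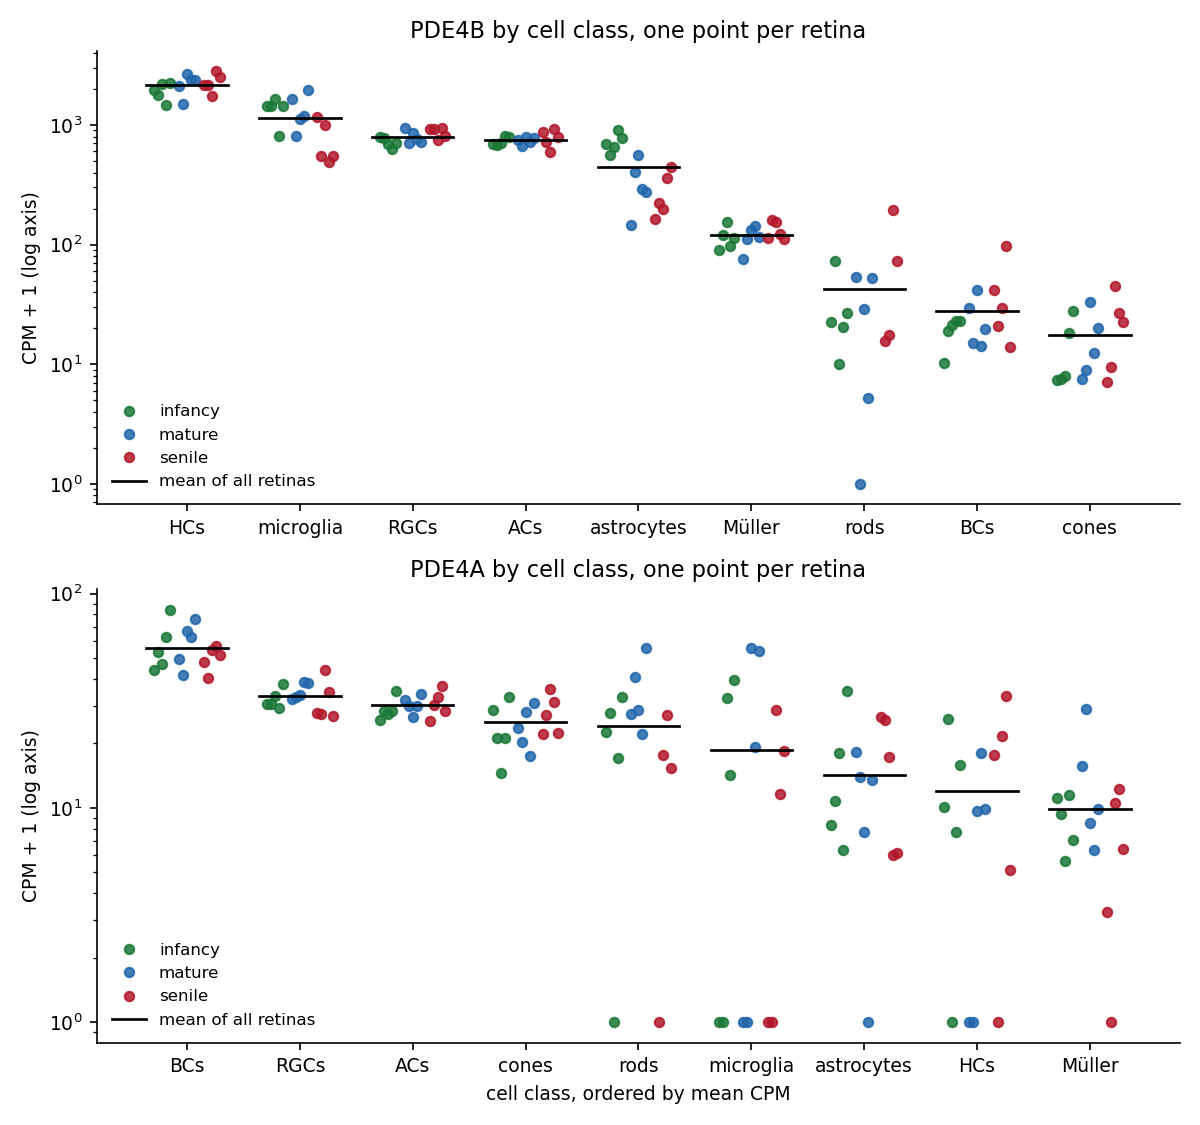
PDE4B (top) and PDE4A (bottom) in 9 cell classes, as CPM + 1 on a log axis; each point is a retina, coloured by stage, and black bars are means over retinas. PDE4B ran from 2137 CPM in HCs to 16.4 in cones, whereas PDE4A was highest in BCs at 55.1 CPM and ran down to 8.84 in Müller cells.

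The share of nuclei with a PDE4B UMI followed the same division. After each nucleus was thinned to 1000 UMIs, 78.5% ± 4.14 of HC nuclei, 61.0% ± 14.6 of microglia, 47.8% ± 4.05 of RGCs, 37.7% ± 2.61 of ACs and 31.8% ± 14.6 of astrocytes held a PDE4B UMI. The share was 11.4% ± 3.84 in Müller cells, 2.65% ± 2.6 in rods, 1.76% ± 1.16 in BCs and 1.52% ± 0.986 in cones. Without thinning the shares were 93.1% in HCs, 7.58% in cones and 4.76% in BCs, at median depths of 3127, 3228 and 2428 UMIs per nucleus, so BCs then had the lowest share. The RNA outside nuclei was not estimated, and the like low shares of cones, rods and BCs are not read as expression. Thinning left out 262 of the microglia as too shallow, and 36 of the HC nuclei. ACs, the most numerous class, held 45.4% of all PDE4B UMIs and 25.3% of all UMIs of the kept nuclei. The share of PDE4B UMIs was 16.2% in RGCs and 7.03% in HCs; nuclei without a class held 26.8%. HCs had 1.33% of all UMIs of the kept nuclei.

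In cones the PDE4B level differed with the software version. The 7 retinas of the earlier version lay between 6.098 and 8.40 CPM and the 8 of the later version between 11.4 and 43.8, without overlap. The same 7 and 8 retinas are labelled polyA RNA and total RNA, so version and label cannot be told apart. Median depth per barcode was 1461 to 3068 UMIs in the libraries of the earlier version and 2268 to 5611 in those of the later. Sex in the study's sample list followed the same split in 13 of 15 retinas. An earlier analysis found Y-linked RNA against that list in many retinas. The part of depth and of sex in the difference was not tested. For PDE4B in the other 8 classes the ranges of the versions overlapped, for example 1506 to 2211 against 1466 to 2802 CPM in HCs. PDE4A in BCs spanned 39.6 to 52.6 CPM under the earlier version and 50.8 to 83.1 under the later, so these overlapped only in part.

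Within ACs, PDE4B differed between groups of clusters. The cholinergic genes CHAT, SLC5A7 and SLC18A3, which mark the starburst ACs of direction selectivity, were carried by 6 clusters, called here the CHAT group. A further 12 clusters carried the glycine transporter gene SLC6A9 and are called here the SLC6A9 group, and the remaining 39 AC clusters are called the remaining ACs. None of these groups is given a cell type. Under their own symbols, without numbered copies, GAD2 had 0 UMIs in all ACs, SLC6A5 10 and GAD1 479, too few to name GABAergic or glycinergic cells. The division of clusters counted numbered copies as well, whose UMIs are not given here. The SLC6A9 group held 1563 ± 274 CPM of PDE4B, the remaining ACs 629 ± 79.6 CPM and the CHAT group 230 ± 82.5 CPM. This order was seen in 15 of 15 retinas, with log2 differences of 1.3 and 1.53 between the neighbours.

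The clusters of a group varied more than the group means. PDE4B spanned 150 to 3130 CPM over the clusters of the SLC6A9 group, 26.4 to 2320 over the remaining ones and 40.2 to 816 over those of the CHAT group, so single clusters of the 3 groups overlapped. Some clusters carried a marker gene of another group: SLC6A9 held 159 to 300 CPM in 3 of the 6 clusters of the CHAT group, of which 1 had nearly the same leading genes as a cluster of the remaining ACs, SLC5A7 held 101 and 518 CPM in 2 clusters of the SLC6A9 group, and SLC6A9 held 108 CPM in 1 of the remaining clusters. Where the 6 clusters with at least 100 CPM of such a gene were left out, a limit set after the values were seen, PDE4B was 1581 ± 285 CPM in the SLC6A9 group, 528 ± 71.8 in the remaining ACs and 81.5 ± 45.6 in the CHAT group, in the same order in 15 of 15 retinas. The 3 clusters then left in the CHAT group were led by MEGF11 and GABRA4. CHAT itself was not part of that limit and was not confined to the CHAT group. For example, it held 98.0 CPM in 1 cluster of the SLC6A9 group, and 95.4 and 66.4 in 2 of the remaining clusters. Those values exceeded the 29.6 and 32.4 CPM of 2 clusters of the CHAT group. PDE4B in cone clusters with more OPN1LW or more OPN1SW (15.8 ± 11.4 and 31.4 ± 47.4 CPM over 14 retinas) and in BC clusters with more ISL1, GRM6 and TRPM1 or more GRIK1 (26.0 ± 22.7 and 27.7 ± 21.9 CPM) took no common order over retinas. These values are descriptions with no test.

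**Figure D2:**
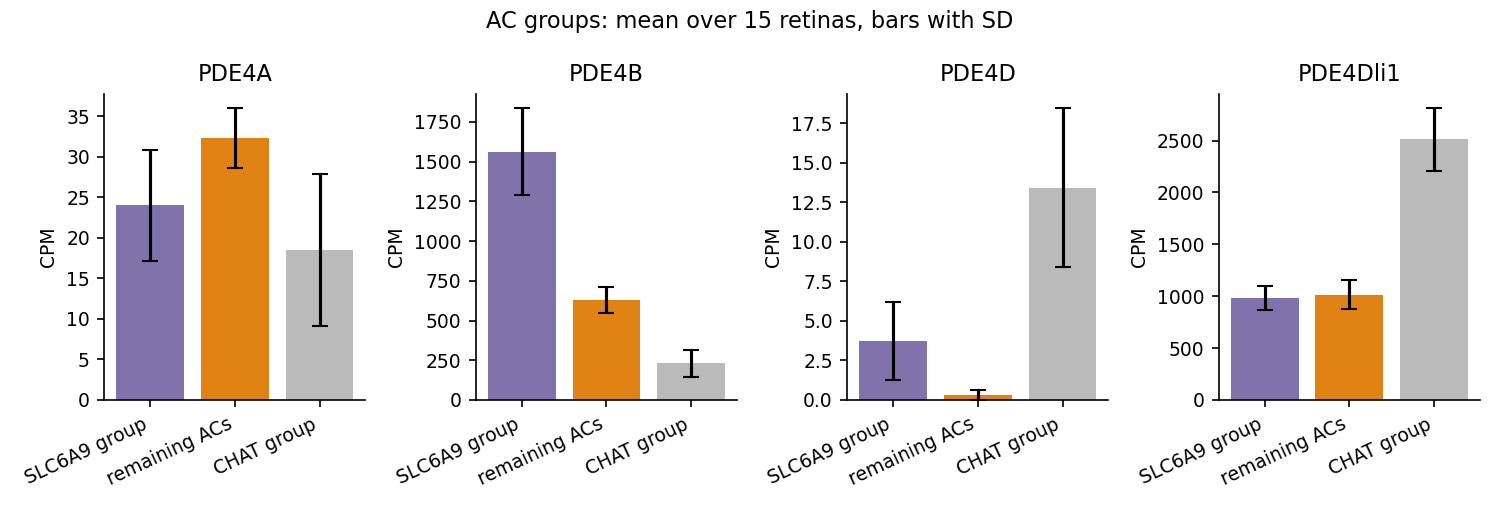
PDE4A, PDE4B, PDE4D and the copy PDE4Dli1 in 3 groups of AC clusters; bars are mean CPM over 15 retinas and whiskers SD, each panel on its own scale from 0. PDE4B ran in the order SLC6A9 group (1563), remaining ACs (629) and CHAT group (230), while PDE4D and PDE4Dli1 had their highest bar in the CHAT group (13.4 and 2512 CPM).

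An antisense feature of the gene had a partly like order of classes, with microglia below RGCs and ACs. PDE4B-AS-5 held 940.5 ± 234 CPM in HCs, 285 ± 70.4 in RGCs, 209.5 ± 62.4 in ACs, 187 ± 105 in microglia, 168 ± 127 in astrocytes and 2.59 ± 3.14 in cones. Within ACs it was again highest in the SLC6A9 group (388 ± 101 CPM) and lowest in the CHAT group (63.2 ± 37.8 CPM). How strand was used in counting is not given in the sources used here, so reads of PDE4B and of this feature may not be told apart.

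PDE4A, whose enzyme is found broadly in the brain, was spread more evenly. Its mean was 55.1 ± 12.6 CPM in BCs, 32.2 in RGCs, 29.1 in ACs, 24.2 in cones, 23.1 in rods, 17.7 in microglia, 13.3 in astrocytes, 10.96 in HCs and 8.84 in Müller cells. HCs, at the top for PDE4B, were thus next to last for PDE4A, although they held 25.5 CPM with doublets kept and 26.9 where each nucleus was classed by its own markers (17.3 in Müller cells). BCs, the interneurons between photoreceptors and RGCs, exceeded RGCs in 15 of 15 retinas by 0.74 ± 0.26 on the log2 scale (adjusted p = 0.000916). RGCs exceeded ACs (12 of 15 retinas, adjusted p = 0.0421) and ACs exceeded cones (12 of 15 retinas, adjusted p = 0.0143); 12 of 23 alternatives lost the call of RGCs over ACs. The 5 neighbouring pairs from cones downward did not differ beyond their spread. Within ACs PDE4A was highest in the remaining ACs, at 32.3 ± 3.67 CPM, above the CHAT group (18.5 ± 9.33) in 14 of 15 retinas and above the SLC6A9 group (24.0 ± 6.84) in 11 of 15. Without the clusters of another marker PDE4A in the CHAT group was 10.4 ± 5.16 CPM, below the remaining ACs (34.0 ± 4.08) in 15 of 15 retinas. A PDE4A UMI was present in 5.79% ± 1.57 of BC nuclei and in 0.765% ± 0.488 of Müller nuclei after thinning.

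PDE4D, known as a phosphodiesterase anchored close to receptors and ion channels, had few UMIs under its own symbol. It had 818 UMIs in all kept nuclei, and its mean was 10.1 ± 6.82 CPM in HCs, 4.804 ± 2.27 in RGCs and 2.89 ± 1.29 in ACs. In astrocytes it had 0 UMIs, which allows up to 0.987 CPM over the 3040676 UMIs of that class (a floor of 3 counts, for counting error only). In cones it had 2 UMIs in all, among 61603085. HCs and RGCs did not differ beyond their spread (13 of 15 retinas, adjusted p = 0.235), and RGCs exceeded ACs (13 of 15 retinas, adjusted p = 0.0421). Microglia had 2 PDE4D UMIs among 1616044, with 13 of 15 retinas at 0. A count of 0 over that total allows up to 1.86 CPM, and over the microglia of 1 stage 4.99 to 6.32 CPM, so the exact test of ACs against microglia is not read at this depth; its call was lost with log2(CPM + 10) and with at least 50 nuclei. The call of RGCs over ACs was lost in 10 of 23 alternatives. The CHAT group held 13.4 ± 5.04 CPM, against 3.73 ± 2.44 in the SLC6A9 group and 0.320 ± 0.320 in the remaining ACs; the level of the CHAT group was the highest of the 3 in 15 of 15 retinas, and was 17.8 ± 7.86 CPM without the clusters of another marker.

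A numbered copy, PDE4Dli1 (TSDBGID.5989), held 639437 UMIs in the same nuclei. Whether this copy or the feature named PDE4D is the PDE4D gene of the TS could not be settled. Low counts under the PDE4D symbol are thus not read as little PDE4D RNA. How reads were divided between PDE4D and this copy is not given in the sources used here. PDE4Dli1 is listed under its own identifier and was not counted as a member. Its mean was 2421 ± 414 CPM in cones, 2207 ± 224 in BCs, 1454 ± 458 in astrocytes, 1439 ± 268 in rods, 1228 ± 238 in Müller cells, 1217 ± 156 in ACs, 932 ± 215 in HCs, 904 ± 131 in RGCs and 700 ± 279 in microglia. Cones and BCs, lowest for PDE4B, thus stood at the top for PDE4Dli1, and HCs and microglia, highest for PDE4B, stood among its lowest 3. Across the 134 sums of a retina and a class, log2 levels of PDE4B and PDE4Dli1 had a Pearson r of -0.69, and PDE4A and PDE4B of -0.26; the sums of a retina share a library, so these are descriptions. The CHAT group held 2512 ± 301 CPM of PDE4Dli1, more than the SLC6A9 group (981 ± 116) and the remaining ACs (1016 ± 136) in 15 of 15 retinas, and 3118 ± 378 CPM without the clusters of another marker.

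Features named after the PDE4D locus also differed between classes. LINC-PDE4D-6 held 144 ± 43.8 CPM in the CHAT group, 5.997 ± 3.25 in the remaining ACs and 2.02 ± 1.87 in cones. LINC-PDE4D-3 held 52.8 ± 28.3 CPM in the CHAT group, 28.4 ± 21.2 in HCs and 0 in astrocytes, as PDE4D did. LINC-PDE4D-1 instead had its highest class mean in cones (91.9 ± 37.8 CPM), as PDE4Dli1 did.

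**Figure D3:**
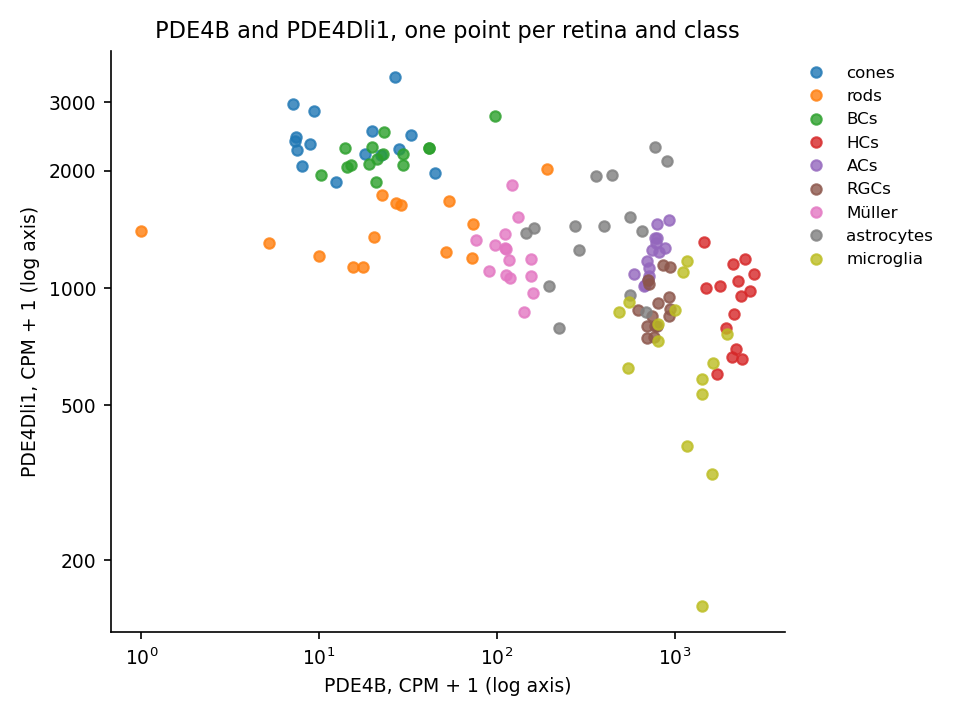
PDE4B against the copy PDE4Dli1, both as CPM + 1 on log axes; each point is a retina in a class, coloured by class, 134 points in all. Cones and BCs lie at low PDE4B and high PDE4Dli1, and HCs and microglia at high PDE4B and low PDE4Dli1 (r = -0.69).

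PDE4C was near the detection limit. It had 170 UMIs in all kept nuclei, its highest class mean was 0.581 ± 1.59 CPM in microglia (2 UMIs), and it had 0 UMIs in astrocytes. None of its 8 neighbouring pairs of classes differed (the lowest p adjusted over these pairs was 0.714), and at this depth no order could be read.

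In astrocytes, glia of the inner retinal surface that accompany RGC axons, PDE4B was lower in senile and in mature retinas than in infant ones. The infant retinas held 693, 564, 657, 906 and 779.8 CPM (replicates 1 to 5). The mature retinas held 144, 399, 562, 290.5 and 274 CPM. The senile retinas held 161, 223, 196, 359 and 444 CPM. No senile value reached an infant one, the highest mature value lay just below the lowest infant one, and mature and senile values overlapped. The means were 719.8 ± 130, 334 ± 156 and 276 ± 120 CPM. The fitted log2 difference was -1.67 between senile and infancy, -1.31 between mature and infancy and -0.35 between senile and mature. The last of these rested on single retinas: it was -0.13 without Mature 2 or without Mature 3 and -0.55 without Senile 5. Since senile and infant astrocytes chose the gene, and the other contrasts share those retinas, no test is given. The values rest on few UMIs in some retinas: Senile 2 had 9 PDE4B UMIs in 37 astrocytes and Mature 4 had 10 in 11.

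Split by software version, these values remain those that chose the gene and are a description. Under the earlier version the infant astrocytes held 564 to 693 CPM of PDE4B (3 retinas) and the senile 161 to 223 (2 retinas). Under the later version they held 779.8 to 906 (2 retinas) and 196 to 444 CPM (3 retinas). The log2 difference was -2.06 and -1.46 in the respective versions, -1.34 with doublets kept and -1.13 where each nucleus was classed by its own markers.

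PAX2, SLC14A1 and GFAP belong to the list that defined astrocytes. The class rule required that list, so its presence at all stages was set in advance. The whole list summed to 4716 to 10490 CPM in infancy and 6464 to 9755 at maturity (10 of 10 with a UMI in each). In senility it summed to 5822 to 10300 CPM (9 of 10). PAX2, a transcription factor of retinal astrocytes, spanned 415 to 744 CPM in infancy and 448 to 778 in senility, and the urea transporter gene SLC14A1 2250 to 4583 and 3058 to 6249. GFAP, the intermediate filament of reactive glia, spanned 55.7 to 183 CPM in infancy, 58.1 to 169 at maturity and 172 to 569 in senility, so that the infant and senile ranges overlapped in part. The oligodendrocyte genes MOBP and MAG were at 0 in all 15 retinas, MBP had at most 2 UMIs per stage, and the microglial receptor gene CX3CR1 had 2 UMIs in mature retinas and 0 in the rest. P2RY12, a further microglial receptor gene, spanned 4.86 to 11.4 CPM in infancy (11 UMIs), 0 to 12.9 at maturity (6) and 0 to 15.5 in senility (4). The whole microglia list summed to 6.19 to 34.0 CPM (5 of 11 with a UMI), 0 to 45.1 (9 of 11) and 8.48 to 25.8 (6 of 11) in the same order. Markers of the pigment epithelium summed to 171 to 217 CPM in infancy (4 of 8 with a UMI), 180 to 387 at maturity (3 of 8) and 247 to 481 in senility (3 of 8), and infancy and senility did not overlap. Markers of RGCs (8 of 11 with a UMI) summed to 391 to 745 CPM in infant, 697 to 1271 in mature and 978 to 1648 in senile astrocytes. Markers of cones (7 of 9 with a UMI in infancy and at maturity, 6 of 9 in senility) summed to 57.1 to 246 CPM in infancy, 143 to 592 at maturity and 263 to 1044 in senility. Markers of Müller cells (9 of 9 in the files with a UMI) summed to 1495 to 2528 CPM in infancy, 1685 to 2248 at maturity and 1484 to 2375 in senility. Infancy and senility also overlapped for markers of BCs (426 to 656 and 492 to 840 CPM) and ACs (280 to 709 and 322 to 1187). The same held for markers of oligodendrocyte precursors (774 to 1103 and 961 to 1064 CPM). The part of these markers in the PDE4B difference was not tested. Of the other members, PDE4A in astrocytes was 14.7 ± 11.7 CPM in infancy, 9.89 ± 6.68 at maturity and 15.3 ± 10.0 in senility, with overlapping retinas, and PDE4C and PDE4D were at 0 (at most 0.935 and 0.296 CPM under other rules for classes and doublets).

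**Figure D4:**
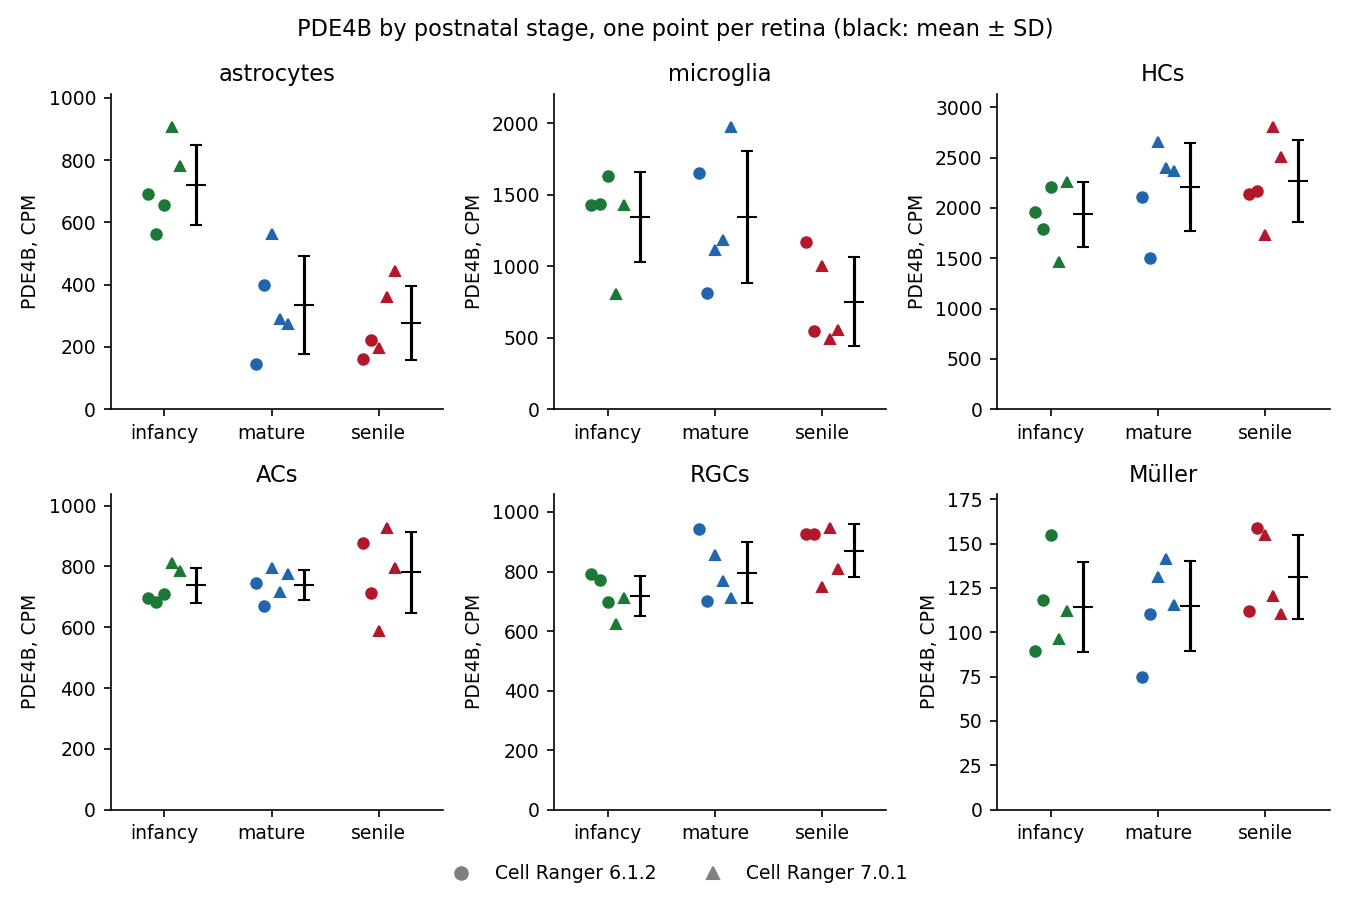
PDE4B in 6 cell classes by stage, in CPM on axes from 0; each point is a retina (circles and triangles are Cell Ranger 6.1.2 and 7.0.1) and black marks are mean ± SD of 5 retinas. Senile and mature astrocytes lie below all infant ones, 4 of 5 infant microglia lie above all senile ones, and the stages overlap in HCs, ACs, RGCs and Müller cells.

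Among the tests outside the astrocyte values that chose PDE4B, no member passed an adjusted p of 0.05 in any class or contrast. These tests use the same retinas as that choice. Of 36 combinations of a member and a class, 14 passed the filter on low counts and 13 were tested in each contrast with the edgeR quasi-likelihood test (stage plus software version, p adjusted over all genes of the class). The count called was 0 of 13 for senile against infancy, where 1.28% of all gene-by-class tests were called, and 4 had an unadjusted p under 0.05. It was 0 of 13 for mature against infancy (background 0.857%), with 0 unadjusted, and 0 of 13 for senile against mature (background 0.0112%), with 2 unadjusted. Of all genes tested for senile against infancy, 250 of 1703 in microglia, 1078 of 12020 in BCs and 1569 of 17978 in ACs had such an unadjusted p. For senile against mature these were 114 of 1703 in microglia and 1805 of 17978 in ACs. The member tests with such a p lay in these classes. DESeq2 also called 0 in each contrast. The median log2 difference over the 13 was -0.01, -0.01 and 0.02 in the 3 contrasts.

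Microglia had the lowest adjusted p of these tests. Their PDE4B was 1426, 1432, 1631, 805 and 1430 CPM in infancy, 1651, 809, 1116, 1180 and 1971 at maturity, and 1172, 544, 1001, 488 and 553 in senility. Of the infant retinas 4 lay above every senile one, and Infancy 4 lay among the senile values. The log2 difference between senile and infancy was -0.80 ± 0.30 (SE, edgeR adjusted p = 0.226), with an interval of -1.39 to -0.21 (95% normal limits, here and below). Between senile and mature it was -0.77 (edgeR adjusted p = 0.699). Only 0.117% of genes were called in microglia. Without the filter on low counts the senile against infancy difference passed the test, at -1.03 (edgeR adjusted p = 0.0418); over all alternatives the adjusted p ran from 0.0418 to 0.629. Over the alternatives that leave out a retina it ranged from -1.01 to -0.67.

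PDE4Dli1 differed in the opposite direction in the same microglia, at 466 ± 227 CPM in infancy and 892 ± 196 in senility (log2 difference 0.86 ± 0.34 SE, edgeR adjusted p = 0.263), which did not pass the test either. The summed markers of microglia had a lower median at maturity and in senility than in infancy. They spanned 4559 to 12390 CPM in infancy (median 9723, 11 of 11 with a UMI). At maturity they spanned 3739 to 6607 CPM (median 4729, 11 of 11) and in senility 3385 to 11120 (median 4824, 10 of 11). CX3CR1 had a median of 819 CPM in infancy, 455 at maturity and 385 in senility. Markers of BCs spanned 176 to 330 CPM in infancy (median 197, 7 of 11 with a UMI) and 146.5 to 849 in senility (median 473, 6 of 11). Those of cones spanned 127 to 971 CPM (median 572, 6 of 9) and 167 to 3169 (median 952, 6 of 9). AC markers spanned 299 to 998 CPM (median 511, 8 of 10) and 505 to 1335 (median 697, 7 of 10). T cell markers instead spanned 182 to 444 CPM (median 355, 2 of 6) and 31.8 to 275 (median 77.7, 1 of 6). The medians at maturity were 476 CPM for markers of BCs, 607 for cones, 494 for ACs and 135 for T cells. All of the infant and senile ranges overlapped. Their part in these differences was not tested.

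In HCs, ACs, RGCs and Müller cells the intervals of the stage difference in PDE4B included 0. Between senile and infancy the log2 difference was 0.13 in HCs (interval -0.19 to 0.46), -0.01 in ACs (-0.23 to 0.20), 0.18 in RGCs (-0.01 to 0.39) and 0.11 in Müller cells (-0.27 to 0.49), with edgeR adjusted p from 0.755 to 0.995. HCs held 1937 ± 325, 2206 ± 436 and 2268 ± 405 CPM in infancy, maturity and senility. ACs held 738 ± 57.2, 739.8 ± 49.0 and 781 ± 134 CPM in the same order, and RGCs 719 ± 66.5, 795 ± 102 and 871 ± 88.2.

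The other 3 tests with an unadjusted p under 0.05 between senile and infancy were in BCs and ACs. PDE4B in BCs was 18.3 ± 5.29 CPM in infancy and 39.6 ± 33.4 in senility (log2 difference 1.06 ± 0.47 SE, edgeR adjusted p = 0.496), of which Senile 4 held 96.4 CPM; without Senile 4 the difference was 0.35. PDE4A in BCs was 57.3 ± 16.2 and 49.4 ± 6.43 CPM (log2 difference -0.34 ± 0.14 SE, edgeR adjusted p = 0.441). PDE4D in ACs was 3.37 ± 1.73 and 2.05 ± 1.09 CPM (log2 difference -0.92 ± 0.35 SE, edgeR adjusted p = 0.389). It was -0.20 within the earlier software version and -1.43 within the later.

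**Figure D5:**
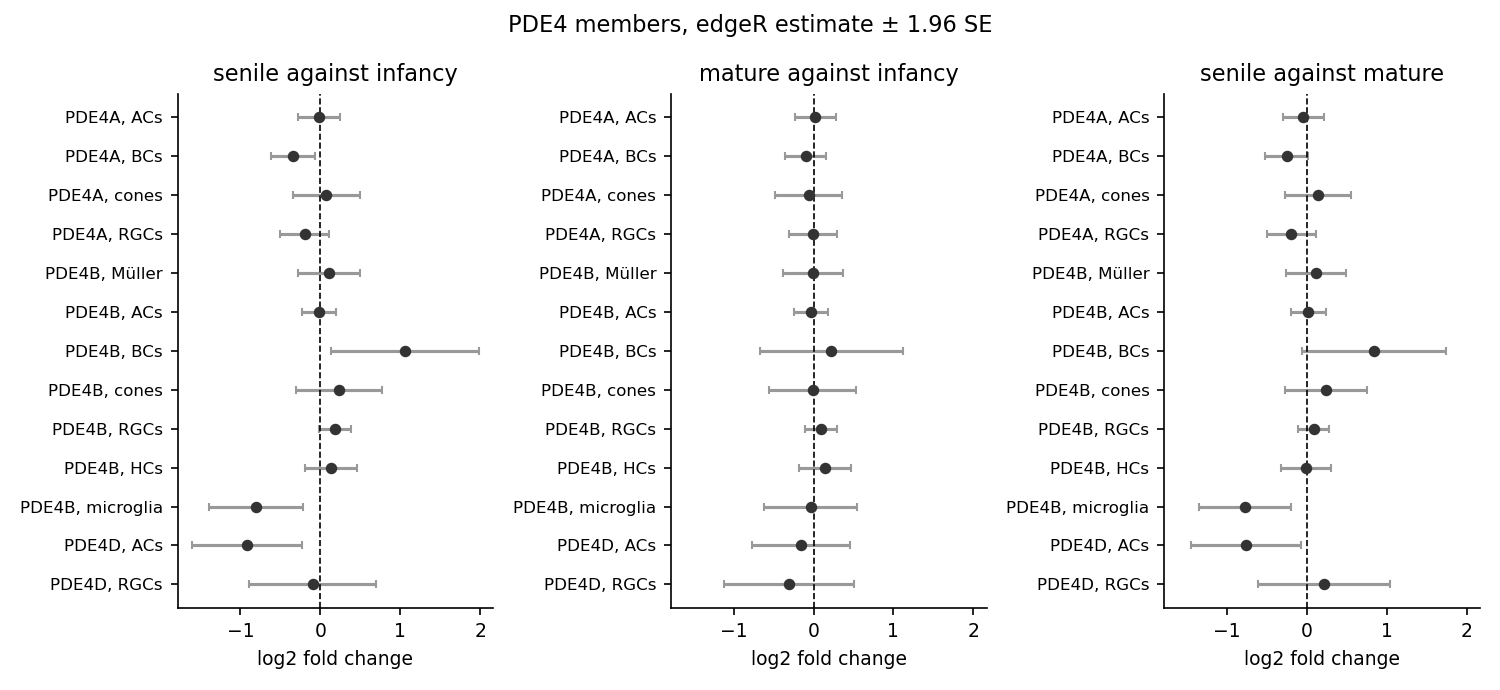
log2 fold change of the 13 tested combinations of a PDE4 member and a class in 3 contrasts of stage; points are edgeR estimates and bars their 95% normal limits, and the dashed line is 0. The bars of PDE4B in HCs, ACs, RGCs and Müller cells cross 0 for senile against infancy, PDE4B in microglia lies at -0.80 for senile against infancy, and no point passed the adjusted test.

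The other genes of cyclic AMP turnover were taken as 7 lists by function with 77 genes, of which 76 were in the files and 330 gene-by-class tests passed the filter. Between senile and infancy 4 of the 330 rose and 1 fell, and between mature and infancy 2 rose and 1 fell. These are 1.52% and 0.909% of the tests, near the backgrounds of 1.28% and 0.857%, so the pooled counts are no result about the lists. All that rose were in the list of other cyclic AMP phosphodiesterases. They were 4 of its 55 tests (7.27%) between senile and infancy and 2 of 55 (3.64%) between mature and infancy. The list was not tested as a set. Between senile and mature 0 were called by edgeR. The median log2 difference over the lists was 0.03, 0.07 and -0.05 in the 3 contrasts. The background of senile against infancy was 1.95% of genes in cones, 1.41% in rods, 1.18% in BCs, 0.311% in HCs, 1.35% in ACs, 1.15% in RGCs, 1.19% in Müller cells and 0.846% in astrocytes. That of mature against infancy was 1.37% in cones, 0.794% in RGCs and 0.907% in Müller cells.

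The list genes that rose were PDE8B, PDE8A and PDE1C, phosphodiesterases of other families than PDE4. PDE8B, a high-affinity cyclic AMP phosphodiesterase, was 18.1 ± 3.55 CPM in infant RGCs, 43.4 ± 3.46 in mature and 40.4 ± 8.35 in senile ones. The infant retinas (13.5 to 23.1 CPM) overlapped neither the mature (40.6 to 48.4) nor the senile (30.0 to 52.1). The log2 difference was 1.00 ± 0.18 (SE) for senile against infancy (edgeR adjusted p = 0.00294) and 1.15 ± 0.18 for mature against infancy (edgeR adjusted p = 0.00158). In ACs PDE8B was 14.1 ± 1.26 CPM in infancy and 30.7 ± 4.28 in senility (log2 difference 1.04 ± 0.22 SE, edgeR adjusted p = 0.0216), again without overlap; this call was lost without any of Infancy 1, 3, 4 or 5 or Senile 2 or 4, at 0.99 to 1.04, and in the clusters without the marker gate. PDE8A, the other gene of that family, was 18.0 ± 5.86 CPM in infant and 34.0 ± 8.74 in senile cones (log2 difference 0.94 ± 0.18 SE, edgeR adjusted p = 0.00629), with overlapping retinas; the call was lost with stage alone (0.81, edgeR adjusted p = 0.205). In the same cones the summed markers of the pigment epithelium spanned 34.5 to 49.6 CPM in infancy and 53.9 to 79.2 in senility, without overlap. Those of BCs (52.1 to 106 and 33.9 to 208 CPM), ACs (799 to 1050 and 1008 to 1292) and rods (303 to 499 and 327 to 468) overlapped. The part of these markers in the PDE8A difference was not tested. Within either software version alone, none of the 5 calls of senile against infancy passed the test, with the same direction.

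PDE1C, a phosphodiesterase activated by calcium and calmodulin, rose in Müller cells, the radial glia that span the retina. It was 57.9 ± 20.5 CPM in infancy (41.8 to 89.0), 279 ± 63.4 at maturity (170 to 335) and 274 ± 144 in senility (103 to 449), so that infancy overlapped neither later stage. The log2 difference was 2.16 ± 0.37 (SE) for senile against infancy (edgeR adjusted p = 0.00504) and 2.25 ± 0.36 for mature against infancy (edgeR adjusted p = 0.00403). Where each nucleus was classed by its own markers alone the differences were 0.38 and 0.59 and did not pass the test. BCs had the highest PDE1C level, 811 ± 83.7 CPM, and the summed BC markers (7 of 11 with a UMI) in the Müller nuclei spanned 124 to 391 CPM in infancy, 142 to 478 at maturity and 207 to 361 in senility; their part in the difference was not tested.

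The genes that fell were induced by cyclic AMP and by other stimuli, and both were low. NR4A1, an immediate early transcription factor, was 26.2 ± 34.6 CPM in infant and 2.10 ± 2.68 in senile cones (log2 difference -3.39 ± 0.79 SE, edgeR adjusted p = 0.0316). The infant retinas spanned 5.80 to 87.5 CPM and the senile 0 to 6.52, so they overlapped in part. SIK1, a kinase of the CREB pathway, was 11.4 ± 12.6 CPM in infant and 2.21 ± 2.01 in mature cones (log2 difference -1.86 ± 0.44 SE, edgeR adjusted p = 0.0476). Its infant retinas (1.10 to 32.1 CPM) overlapped the mature ones (0.357 to 4.82). The NR4A1 call was lost without any of Infancy 2 or 4 or Senile 1 to 5, at -3.93 to -2.64. The SIK1 call was lost without any of 10 of the 15 retinas, Infancy 2, 3 and 4, Mature 1 to 4 and Senile 1, 2 and 4, with differences from -1.95 to -1.34. Of adenylyl cyclases, G protein alpha subunits, protein kinase A subunits, other effectors, and anchoring and partner proteins, 0 of 31, 37, 42, 47 and 88 tests were called in any contrast.

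Genes of the cyclic AMP lists differed in the class of their highest level, and those given here were chosen after their values were seen. ADCY9 (101 ± 34.9 CPM), the kinase inhibitor gene PKIA (289 ± 31.6) and the anchoring protein gene AKAP7 (328 ± 92.1) were each at their highest in HCs. ADCY7 (133 ± 41.9 CPM), the stimulatory G protein gene GNAS (442 ± 119) and CREB1 (244 ± 81.3) were at their highest in microglia. ADCY8 (314 ± 26.8 CPM) and AKAP6 (634 ± 72.4) were at their highest in ACs, and PDE7B (960 ± 618), a further cyclic AMP phosphodiesterase, in astrocytes.

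The genes most like each member were sought by the Pearson correlation of log2(CPM + 1) over the 134 sums among 9312 genes. For PDE4B these were CYRIA (r = 0.85), SORL1 (0.84), RBFOX2 (0.82), KCNJ3 (0.81) and SPNS2 (0.80), each with its lowest mean in cones. SORL1, a sorting receptor, was at its highest in microglia (612 CPM) and then HCs (275), and KCNJ3, a potassium channel gene, in HCs (1612) and then astrocytes (1290). For PDE4A they were OSBP2 (0.66), ANK3 (0.60), NA-1198-1 (0.59), RYR2 (0.59) and SRRM4 (0.58), and for PDE4D SYT14 (0.77), HS6ST2 (0.77), UBE2QL1 (0.74), ONECUT1 (0.74) and PAK5 (0.73). All 5 genes most like PDE4D were at their highest in HCs, among them ONECUT1, a marker of that class. The sums of a retina share a library and the classes differ in many genes, so these correlations describe the likeness alone.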

How the data were processed

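Single nuclei of 15 retinas were profiled. The authors mapped the reads to the genome TS_3.0, and the deposited matrices hold whole UMI counts that were not normalized; per the file headers Cell Ranger 6.1.2 made 7 matrices and 7.0.1 made 8, while the labels name 5.0.1 for those 7. Whether intronic reads were counted is not given in the sources used here. No cell annotation was used. A barcode was kept where it had over 200 but under 6000 genes and mitochondrial genes took less than 5% of its UMIs (119765 of 120437), 7940 were removed as doublets (3.38% to 7.88% per retina, by similarity to simulated doublets), and the rest formed 131 Leiden clusters (leidenalg 0.10.2, scikit-learn 1.9.0; 2000 variable genes, 30 components, 20 neighbours, resolution 2). A cluster was named where the marker score was at least 0.5, the next at most 0.75 of it and at least 3 markers were detected, limits set after the clusters were seen; a nucleus further needed a UMI of at least 2 markers of its class and no higher score for another. UMI counts were summed per retina and class (at least 10 nuclei) and tested with edgeR 4.0.16 (TMM, filterByExpr, quasi-likelihood; stage plus Cell Ranger version), with Benjamini-Hochberg adjustment over all genes of a class and a threshold of 0.05. The script was tested on simulated data. Neighbouring classes were compared by exact sign-flip tests on log2(CPM + 1). The study describes 15 retinas of 15 animals, so replicates were taken as animals. The classes hold 105 to 2218 cones, 701 to 2151 ACs, 11 to 134 astrocytes and 13 to 76 microglia per retina, so values of the last 2 classes are the least precise.

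The members and the lists were chosen with earlier results of these data known. Named genes are the 4 members in every class, features named after them, list genes past the threshold, and the 5 genes best correlated with each member that reaches 10 CPM in a class; list genes named by their highest class, and the features of the PDE4D locus given here, were chosen after their values were seen. Alternatives were RLE factors, DESeq2 1.42.0, no filter, other covariates, doublets kept, other class rules, LINC-FRMD8-1 left out, each software version alone and each retina left out; the clusters without the marker gate, and for the lists also RLE, sex, doublets, LINC-FRMD8-1 and single versions, the pairs of PDE4B with astrocytes left out, and AC clusters with another group's marker left out, were added after the data were seen. Sequences and coordinates are not reported, since no reference of this build was used here. One marker used to divide ACs is not reported here.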

Additional observations from a re-analysis of the deposited data

Results flagged for a closer look

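Of 54 groups of retinas examined for a value far from the rest, 3 held one, and chance alone gives about 1 in 20. PDE4A in ACs was 34.2 CPM in Infancy 5, whereas the other infant retinas lay between 24.7 and 27.4. PDE4B in rods was 71.2 CPM in Infancy 2, against 9.02 to 26.0 in the other infant retinas; it rests on 8 UMIs in 58 nuclei. PDE4B in microglia was 805 CPM in Infancy 4, against 1430 to 1630 in the other infant retinas, and without that retina the log2 difference between senile and infancy was -0.97 (edgeR adjusted p = 0.232).

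Outside the members, the copy PDE4Dli1 held 639437 UMIs in all kept nuclei, against 818 for PDE4D.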

How the results depend on the processing

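The count of PDE4 members called stayed at 0 for mature against infancy and for senile against mature in all 27 alternatives, and for senile against infancy in 26 of 27; without the filter on low counts it was 1, PDE4B in microglia. The 10 neighbouring pairs of classes that differed became 0 in the 7 retinas of Cell Ranger 6.1.2 alone and 0 in the 8 of 7.0.1 alone, where fewer retinas enter the exact test, and ranged from 7 to 10 with a retina left out. They include 2 pairs of PDE4B with astrocytes, which are not read as tests; without them 8 of 30 pairs differed. The count of calls in the cyclic AMP lists, 5 for senile against infancy, became 13 without the filter on low counts and 3 with stage alone. It became 1 within Cell Ranger 6.1.2, a call that was none of the 5, and 0 within 7.0.1. With a retina left out it ranged from 3 to 6 (3 without Infancy 4, Senile 2 or Senile 4). The cause was not tested. Of the 10 pairs that differed, the direction turned in 1 alternative of 1 pair (PDE4B in BCs and cones, with doublets kept). Members with few UMIs (PDE4C, PDE4D) and classes with few nuclei (astrocytes, microglia, rods) are limited by depth. The replicate numbers were not taken as pairs: same-numbered retinas correlated at 0.26 to 0.61 over 9985 genes in 13 of 15 cases, at -0.43 and -0.44 in 2 that involve Mature 3, and 3 of 15 retinas correlated best with their own number. With the replicate number as a block 0 members were called in each contrast and 4 list tests in place of 5; NR4A1 in cones (-3.12, edgeR adjusted p = 0.11) and SIK1 in cones (-2.55, edgeR adjusted p = 0.0602) did not pass, and the other 6 named list calls did. PDE4B in microglia was then at -0.92 (edgeR adjusted p = 0.122) and in astrocytes at -1.57.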
